A study of Mus musculus with 18 samples.

Results

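High endothelial cells (HECs) sorted from inguinal lymph nodes of mice bearing an EO771 tumour were set against HECs from nodes of mice that received no tumour cells. The members are 6 of the 18 libraries in the series, chosen by their sample labels: 3 of HEC tumour and 3 of HEC normal. They were described over every gene with a mean value of at least 10 across the 12 endothelial libraries, which kept 18511 of 55401 genes. Per the study's methods, the cells of both groups came from wild-type female C57BL/6 mice, bought at 5 to 6 weeks of age, and were gated as negative for CD45 and positive for both CD31 and PNAd, the sulphated sugar epitope that marks high endothelium. EO771 is a mouse breast cancer line of C57BL/6 origin, and its cells were placed in the mammary fat pad. The label of the HEC tumour tissue is lymph node metastases, so these nodes may have held tumour cells, whereas the HEC normal tissue is labelled lymph node only. The age at sorting, the number of mice pooled per library and any sequencing batch are not given in the sources used here, so the spread between libraries may be partly technical. The comparison asks which transcripts of these vessels rise and fall when the draining node holds a tumour, with the interferon genes and Alox12 treated briefly.

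High endothelial venules are the post-capillary vessels through which naive lymphocytes leave the blood and enter lymph nodes. Their tall endothelial cells carry sialomucins such as GLYCAM1 and CD34, which are fucosylated by FUT7 and sulphated by CHST4 so that L-selectin on lymphocytes can bind them. The cells also present chemokines and integrin ligands, and their state depends on lymphotoxin receptor signalling and on the flow and cells of the node.

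All 3 label markers were found. Glycam1 lay at 573 to 592 CPM (counts scaled to a fixed library total) in HEC normal and at 1078 to 1105 CPM in HEC tumour. Fut7 lay at 397 to 434 CPM in HEC normal, but at 221 CPM in 1 HEC tumour library against up to 1021 CPM in the others. Chst4 lay at 0.06 CPM in 1 HEC normal library against up to 297 CPM in the others, and at 916 to 939 CPM in HEC tumour. In normalised counts, Chst4 read 19906, 4.07 and 20205 in the HEC normal libraries and 61178, 60343 and 59212 in the HEC tumour libraries. Fut7 read 28069, 27121 and 29599, then 66477, 65523 and 14255. Neither gene was called over all 6 libraries. Without HEC normal replicate 2, Chst4 was called at a log2 fold change of 1.58 with DESeq2 adjusted p = 1.6e-143, whereas Fut7 without HEC tumour replicate 3 was not, at 1.22 with DESeq2 adjusted p = 0.41. Of 13 further high endothelial genes, 4 were under 1 CPM in every library: Madcam1 reached at most 0.26 CPM, Ackr1 0.08 CPM, and Ccl21a and Ubd were at 0. The others were detected, among them Cd34 at 665 to 851 CPM, Selp at 141 to 248 CPM and Vcam1 at 144 to 192 CPM. All 13 together summed to 1481 to 1525 CPM in HEC normal and 1525 to 1537 CPM in HEC tumour. Pecam1 at 728 to 781 CPM and Cdh5 at 674 to 753 CPM marked endothelium, and the lymphatic gene Prox1 reached at most 0.18 CPM, although Lyve1, another lymphatic marker, lay at 174 to 242 CPM. The division genes Mki67 and Top2a together made up 847 to 885 CPM in HEC normal and 697 to 728 CPM in HEC tumour.

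Total values were 67.1 to 71.3 M per HEC normal library and 56.4 to 65.6 M per HEC tumour library, and 21218 to 21480 and 21942 to 22469 genes were detected. The median coefficient of variation of genes above 1000 normalised counts was 5.37% in HEC normal and 4.89% in HEC tumour (n = 3 each). The first principal component of the 6 libraries held 43.8% of the variance and set the groups apart. Single libraries still stood more than 4-fold from both partners at 10 to 27 genes each, among the 8741 and 8724 genes with a group mean of at least 1000.

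Markers of other cells were mostly low, and their part in the results below was not tested. Lymphatic markers summed to 282 to 338 CPM in HEC normal and 350 to 360 CPM in HEC tumour, with 4 of 7 under 1 CPM. T cell markers summed to 6.74 to 8.21 CPM in HEC normal and 4.25 to 5.6 CPM in HEC tumour, with 6 of 7 under 1 CPM in every library. B cell markers summed to 9.78 to 10.6 and 3.92 to 4.63 CPM, with 5 of 6 under 1 CPM. Myeloid markers summed to 486 to 509 and 357 to 375 CPM, nearly all of it Cd68, and 5 of 8 were under 1 CPM. Plasma cell markers summed to 133 to 141 CPM in HEC normal and 94.8 to 99.1 CPM in HEC tumour, nearly all of it Sdc1, and 3 of 4 were under 1 CPM. Fibroblast markers summed to 16.4 to 18.2 and 8.03 to 8.88 CPM, mostly Pdgfra at 15.3 to 16.9 and 7.36 to 8.26 CPM. Pericyte markers summed to 23.5 to 25.8 and 10.6 to 13.1 CPM, mostly Notch3 at 14.9 to 16.6 and 7.17 to 9.02 CPM and Pdgfrb at 5.29 to 6.33 and 2.76 to 3.62 CPM. Of the 2 sets, 6 of 7 and 4 of 7 were under 1 CPM, among them Col1a1, Ccl19 and Rgs5. Epithelial markers summed to 29.9 to 32.8 and 33 to 35.3 CPM, of which Krt19 gave most, while Epcam reached at most 0.09 CPM. The 50 genes highest in cultured EO771 cells and near 0 in normal endothelium summed to 3093 CPM in the cell line, to 0.407 to 0.609 CPM in HEC normal and to 1.37 to 2.69 CPM in HEC tumour. In bulk libraries, fewer cells of a type and less RNA per cell cannot be told apart.

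Of the 18511 genes tested, 848 were called higher in HEC tumour, 4.58% of them, and 595 were called lower, 3.21% of them. Calls required an adjusted p below 0.05 in the DESeq2 Wald test together with a fold change above 2, and the words rose and fell are used only for such genes. Normalised counts are values scaled to a common library size, and each log2 fold change is given ± SE for 3 libraries against 3. The genes that rose were mostly scarce. Their median level went from 34.5 to 104 normalised counts, whereas genes that fell went from a median of 308 to 105, and all genes tested had medians of 818 and 804. Among the 3703 genes at the lowest levels, 270 rose and 161 fell, against 31 and 53 of the 3702 genes at the highest levels. Restricting the description to the 13214 genes with a mean of at least 100 normalised counts in 1 of the groups left 436 called higher, or 3.3%, and 394 called lower, or 2.98%. In 120 genes that rose, HEC normal was at or under the floor of 3, and in 112 that fell, HEC tumour was.

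**Figure D1:**
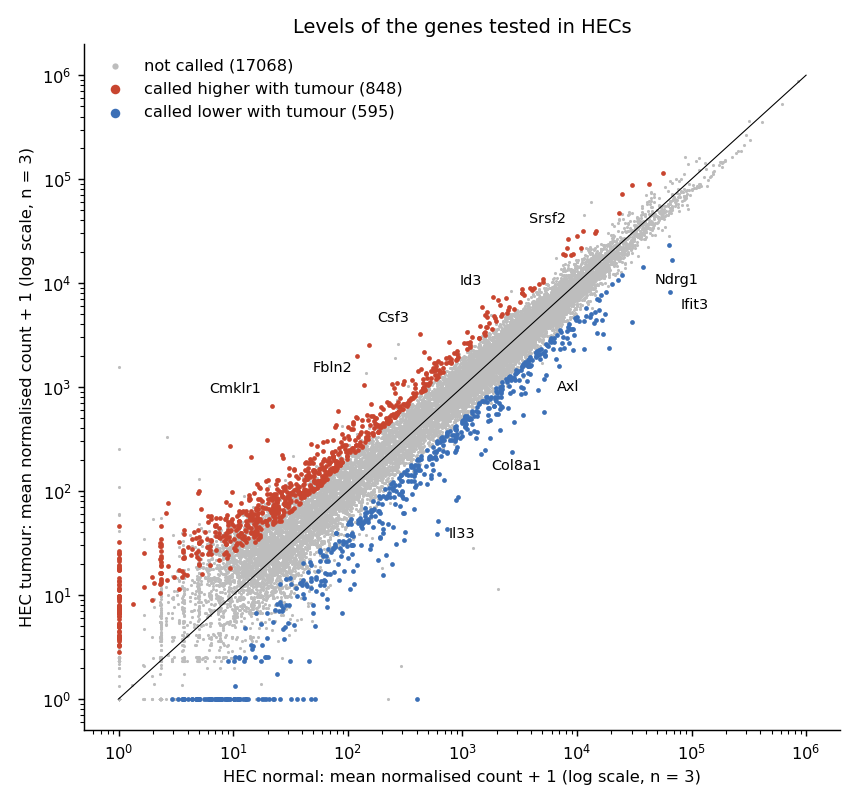
Mean normalised count plus 1 of each gene tested in HEC normal (horizontal, log scale) and HEC tumour (vertical, log scale), 3 libraries each, with genes called higher in red, called lower in blue and the line of equality in black. The 848 genes called higher crowd towards low levels, while the 595 called lower spread over the whole range.

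Kinds of transcript differed between the called groups. Protein-coding genes made up 67.8% of the genes that rose, 92.1% of those that fell and 78.1% of all genes tested. Antisense genes made up 8.96%, 0.84% and 3.15%, and long intergenic non-coding RNAs 6.96%, 0.168% and 2.89%. The share of all counts given to antisense genes was 0.109% to 0.11% in HEC normal and 0.155% to 0.161% in HEC tumour, and that of intergenic non-coding RNAs was 0.355% to 0.362% and 0.487% to 0.492%. Both shares were higher in every HEC tumour library than in any HEC normal library. Because the sources do not say whether counting used strand, antisense genes and their partners cannot be told apart.

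All HEC tumour libraries lay outside the HEC normal range in 752 of the genes called higher and 502 of those called lower, but non-overlap was common at this spread: it held, in either direction, for 48.8% of all genes tested. The named genes below include those with the strongest Wald statistics and the strongest members of 49 gene lists. They also include the largest folds among genes of at least 500 normalised counts in the higher group. Counts of list members are to be read beside the 4.58% and 3.21% of all genes tested that were called higher and lower.

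**Figure D2:**
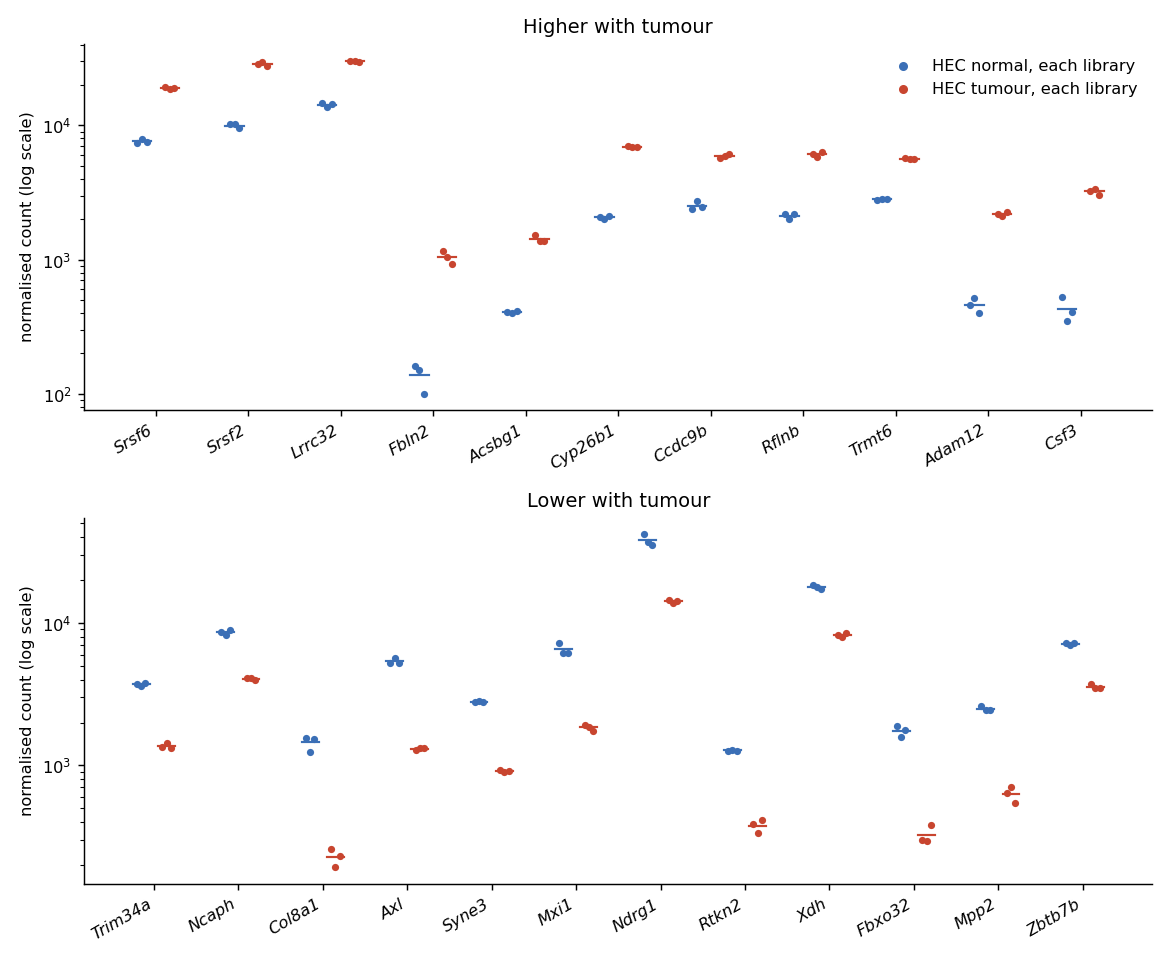
Normalised counts (log scale) of 11 genes that rose and 12 that fell, among those with the largest Wald statistics outside the interferon list, with 1 point for each library and a line at the mean of 3. The groups lie apart in every gene because non-overlap was a condition for choosing these genes.

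TGF-beta and BMP ligands act through receptor kinases on SMAD proteins, which switch on feedback inhibitors and the ID proteins that hold back differentiation factors. Lrrc32, which encodes the docking protein GARP that holds latent TGF-beta at the cell surface, read 14754, 13681 and 14358 normalised counts in HEC normal and 30281, 30388 and 29799 in HEC tumour, a log2 fold change of 1.08 ± 0.05 with adjusted p = 9.0e-96. Every HEC tumour library held more than any HEC normal library.

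Of 34 tested genes of a BMP and TGF-beta list, 6 rose and 1 fell, against the 4.58% and 3.21% of all genes, and the median log2 fold change was 0.09 against 0.02 over all genes. Of the ID genes, Id3 read 1520, 2142 and 1939 in HEC normal and 7051, 7341 and 7575 in HEC tumour, a log2 fold change of 1.97 ± 0.14 with adjusted p = 1.2e-45. Id2 read 552, 541 and 450, then 2040, 1788 and 1866, with 1.88 ± 0.12 and adjusted p = 4.7e-52. Both stood apart in all libraries, and Id1 was higher too, at a log2 fold change of 0.92 ± 0.07, short of the 2-fold limit. The inhibitory SMADs rose: Smad6 read 1361, 1524 and 1272, then 2986, 3128 and 2767, with 1.10 ± 0.14 and adjusted p = 5.2e-13. Smad7 had a log2 fold change of 1.42 ± 0.40 with adjusted p = 0.0017. The ligand gene Inhba, the activin A subunit, rose by 1.22 ± 0.18 with adjusted p = 7.4e-10. The low gene Smad9, at means of 29.3 and 74.3 normalised counts, was the sixth. The receptor gene Bmpr1a read 14.2, 23.4 and 17.2 in HEC normal and 0 in all 3 HEC tumour libraries, so that it was called lower from a small level. Tgfb1, at a log2 fold change of -0.49 ± 0.08, and Tgfb2, at -0.18 ± 0.16, were not called.

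The window before and around the Smad6 start site is shown because it holds an 8-base palindrome of the SMAD binding element. It spans chr9:64022030-64022309 on the minus strand of GRCm38.p6 in RefSeq, from 250 bases before the annotated start to 30 after it, and the capitals mark the palindrome, which begins 4 bases before the start.
Smad6: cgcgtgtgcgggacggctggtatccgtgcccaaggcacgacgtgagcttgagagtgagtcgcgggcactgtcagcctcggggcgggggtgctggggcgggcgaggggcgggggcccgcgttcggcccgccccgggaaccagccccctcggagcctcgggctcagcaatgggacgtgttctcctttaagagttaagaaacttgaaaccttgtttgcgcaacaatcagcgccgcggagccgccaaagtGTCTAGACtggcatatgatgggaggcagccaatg
On either strand, GTCTAGAC was found in the 300-base windows of 0.305% of 11157 protein-coding genes tested, in 4 of 416 that rose (0.962%) and in 1 of 400 that fell (0.25%). Among the other named genes, windows of Srsf1 and Tnfaip3 held it, whereas those of Id2, Id3 and Inhba did not. The match in Smad6 is a description of letters, and binding there was not measured.

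Matricellular and elastic fibre genes, whose products sit in the matrix and tune how cells adhere to it, gave the largest share of risers of any list. Of 31 tested, 11 rose and 1 fell, and among the 22 with a mean of at least 100 normalised counts 9 rose and none fell. Their median log2 fold change was 0.23 over all 31. Fbln2, a fibulin of elastic fibres and basement membranes, read 160, 151 and 100 in HEC normal and 1167, 1042 and 928 in HEC tumour, a log2 fold change of 2.93 ± 0.15 with adjusted p = 1.8e-83. It was scarce in HEC normal and lay above the all-gene HEC tumour median of 804 in every HEC tumour library. Ccn2, also known as CTGF, read 1383, 1554 and 1775, then 5226, 4610 and 4990, with 1.65 ± 0.11 and adjusted p = 7.1e-51. Spon2 read 112, 137 and 98.4, then 473, 529 and 538, with 2.15 ± 0.19 and adjusted p = 2.7e-27. Thbs1, the adhesive glycoprotein thrombospondin-1, read 12829, 16560 and 14414, then 31434, 30915 and 32194, with 1.11 ± 0.11 and adjusted p = 4.3e-23. None of these groups overlapped. Tnxb at 1.08 ± 0.13 and Loxl1, a cross-linking oxidase, at 1.09 ± 0.18 rose less. Thbs2 was at 0 in every HEC normal library and at 26.6, 15.8 and 29.9 in HEC tumour. Adam12, a membrane metalloprotease, read 458, 519 and 397, then 2189, 2126 and 2246, with 2.26 ± 0.12 and adjusted p = 5.5e-72, and its groups were widely apart. It was 1 of 2 matrix protease genes that rose among 34 tested, of which 2 fell. These were 5.88% in each direction, against 4.58% and 3.21% of all genes.

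Collagens did not move one way. Of 33 tested, 3 rose (9.09%, against 4.58% of all genes) and 2 fell (6.06%, against 3.21%). Col20a1 rose by 2.86 ± 0.40 and Col11a2 by 2.20 ± 0.35 on the log2 scale, both from under 100 normalised counts. Col8a1, a short-chain collagen of vessel walls, fell from 1551, 1252 and 1544 to 257, 192 and 231, a log2 fold change of -2.68 ± 0.13 with adjusted p = 5.4e-95. Col1a1, the fibrillar collagen typical of fibroblasts, was scarce and fell from 63.9, 43.8 and 38.2 to 9.24, 7.89 and 0. Among laminins and integrins, Lama3 fell by 2.32 on the log2 scale and Itga8 went from 16.2, 19.3 and 28.7 to 0 in all 3 libraries.

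Of 33 complement and coagulation genes, 5 rose (15.2%, against 4.58% of all genes) and 1 fell (3.03%, against 3.21%). Plat, which encodes the tissue plasminogen activator, a protease that starts the breakdown of clots, read 9616, 8736 and 9623 in HEC normal and 19177, 19288 and 19248 in HEC tumour, a log2 fold change of 1.04 ± 0.08 with adjusted p = 1.8e-36. Vwf, the platelet-binding multimer of Weibel-Palade bodies, read 159, 201 and 183, then 466, 387 and 425, with 1.24 ± 0.19 and adjusted p = 3.9e-10. C1s1, a complement protease, rose by 1.13 ± 0.17. The groups of Plat and of Vwf did not overlap, although Vwf stayed low for an endothelial gene. Among the other calls, C1qc lay near 0 in all libraries, and Cd59a, a complement inhibitor, fell by 1.00 on the log2 scale.

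Of 21 Notch pathway genes 2 rose (9.52%, against 4.58% of all genes) and 1 fell (4.76%, against 3.21%). Lfng, the glycosyltransferase that modifies Notch receptors, read 225, 248 and 301 in HEC normal and 903, 870 and 860 in HEC tumour, a log2 fold change of 1.76 ± 0.13 with adjusted p = 9.8e-40. Hes1, a repressor that Notch switches on, read 575, 516 and 493, then 1348, 1476 and 1496, with 1.45 ± 0.14 and adjusted p = 7.4e-24. Both were higher in all HEC tumour libraries. The receptor gene Notch3, one of the pericyte markers above, fell by 1.05 on the log2 scale with adjusted p = 1.6e-07, and the remaining 18 genes were not called.

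SR proteins bind exons and steer splicing. Of 33 SR protein and splicing kinase genes, 4 rose (12.1%, against 4.58% of all genes) and none fell. The 4 included the abundant Srsf6, Srsf2 and Srsf1, and the median log2 fold change of the list was 0.34. Srsf6 read 7340, 7882 and 7554 in HEC normal and 19239, 18730 and 19143 in HEC tumour, with 1.33 ± 0.05 and adjusted p = 2.0e-138. Srsf2 read 10221, 10175 and 9515, then 28561, 29506 and 27741, with 1.52 ± 0.07 and adjusted p = 1.0e-108. In both genes the HEC tumour libraries held more than double what any HEC normal library held. Srsf1 read 3368, 3094 and 3412, then 8316, 8273 and 9453, with 1.40 ± 0.18 and adjusted p = 3.9e-13. Tra2a rose by 1.11 ± 0.20, with a wider spread among the libraries. Exons of Srsf2 overlap Mfsd11 and Mettl23, and those of Srsf1 overlap Gm11508, so part of their values is uncertain. None of 26 hnRNP genes, which also bind pre-mRNA, was called, and Hnrnpab, at 0.47 ± 0.07, was under the 2-fold limit.

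Of 32 MYC target and ribosome biogenesis genes, 3 rose (9.38%, against 4.58% of all genes) and none fell. Their median log2 fold change was 0.45. Rrs1, an assembly factor of the large subunit, read 4904, 5342 and 4976, then 9944, 10340 and 10702, with 1.03 ± 0.06 and adjusted p = 4.4e-56. Gnl3, which encodes nucleostemin, rose by 1.09 ± 0.10 and Rrp1b by 1.27 ± 0.19. None of 86 cytoplasmic ribosomal protein genes was called, but their median was -0.36, and their share of all counts was 8.65% to 9.04% in HEC normal and 7.15% to 7.33% in HEC tumour. The most abundant, Rps2, read 267002, 274185 and 262428, then 186372, 191519 and 184077, a log2 fold change of -0.52 ± 0.08. Its groups lay apart, at a difference under 2-fold. Trmt6, part of the tRNA methyltransferase, rose from 2777, 2851 and 2807 to 5676, 5637 and 5642, with 1.01 ± 0.05 and adjusted p = 1.8e-72.

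Mitochondrially encoded transcripts lay higher, but their reads were shared out unevenly. Of 13 genes 4 rose: mt-Nd4l at 1.67 ± 0.18, mt-Atp8 at 1.48 ± 0.20, mt-Co2 at 1.10 ± 0.14 and mt-Co3 at 1.02 ± 0.15. For mt-Co2 the libraries read 45527, 42297 and 38647, then 68933, 104276 and 98072. On chromosome 1, 7 predicted genes share 97.2% to 100% of their 31-base words with mitochondrial transcripts, and in units of 1000 normalised counts they held 138, 196 and 155 in HEC normal and 218, 7.36 and 45.9 in HEC tumour. With these copies added, the 13 genes held 1589 ± 35.1 such units without tumour and 1917 ± 36.5 with it (SD, n = 3), a ratio of 1.21. The part of the uneven sharing in the 4 calls was not tested. None of 79 nuclear-encoded respiratory chain genes was called, and their median was -0.26.

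Csf3, which encodes the granulocyte growth factor G-CSF, read 524, 350 and 408 in HEC normal and 3232, 3379 and 3042 in HEC tumour, a log2 fold change of 2.91 ± 0.16 with adjusted p = 7.0e-69. Cyp26b1, which breaks down retinoic acid, read 2082, 1997 and 2102, then 7015, 6945 and 6881, with 1.75 ± 0.09 and adjusted p = 3.2e-79. It was the only 1 of 14 retinoic acid genes that was called. Acsbg1, a long-chain acyl-CoA synthetase, read 406, 402 and 413, then 1532, 1377 and 1371, with 1.81 ± 0.09 and adjusted p = 1.4e-79. Each of the 3 genes kept a wide gap between groups. Cmklr1, the receptor for the chemoattractant chemerin, read 19.3, 14.2 and 28.7, then 728, 524 and 725, with 4.98 ± 0.29 and adjusted p = 2.4e-64. Among the genes named here with a mean of at least 500 normalised counts in the higher group, it was the steepest riser. Ptgs2, the inducible cyclooxygenase COX-2, rose by 1.28 ± 0.15, whereas Ptges, which makes prostaglandin E, fell by 1.21 on the log2 scale. Alox12, the 12-lipoxygenase, read 24203, 25145 and 25353, then 73831, 71030 and 72131. The sterol exporters Abca1 and Abcg1 fell by 1.31 and 1.01 on the log2 scale, within a list of 35 cholesterol genes of which 3 rose and 2 fell.

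Several risers have less settled roles in vessels. Rflnb, a filamin-binding protein, read 2198, 2012 and 2181, then 6121, 5840 and 6332, with 1.52 ± 0.08 and adjusted p = 3.7e-74. Ccdc9b rose by 1.22 ± 0.06. Krt80, an epithelial keratin, read 8229, 8368 and 7947, then 23163, 23048 and 19608, with 1.42 ± 0.08 and adjusted p = 3.2e-68, while the cytolinker Ppl of the same keratin and desmosome list fell by 1.42 on the log2 scale. B3gnt2, a glycosyltransferase that extends lactosamine chains, was called at 4.07 ± 0.70, but it read 201, 126 and 125, then 3748, 3539 and 293, so that 1 HEC tumour library stood with HEC normal more than with its partners. Its exons overlap other genes. Gsta1 at 1.31 ± 0.13 and Gsta2 at 1.15 ± 0.23 rose, but these glutathione transferases are near-identical copies whose reads may be split. Mef2a, a transcription factor, rose by 1.21 ± 0.13, 1 of 2 called higher among 34 endothelial transcription factor genes (5.88%, against 4.58% of all genes).

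Of 25 sialomucin and L-selectin ligand enzyme genes 1 was called, or 4%, near the 4.58% of all genes: B3galt6, at 1.18 ± 0.15. Leaving out HEC normal replicate 2 or HEC tumour replicate 1 gave 2 calls. The summed level of the list was 3072 to 3390 CPM in HEC normal and 4074 to 4900 CPM in HEC tumour. Glycam1 read 40089, 39129 and 40336 in HEC normal and 70900, 71579 and 69695 in HEC tumour, a log2 fold change of 0.83 ± 0.05 with adjusted p = 1.0e-70. Its groups were clearly apart, at a difference under 2-fold. None of 22 leukocyte adhesion and egress genes was called, and 13 had log2 fold changes above 0 and 9 below. Those above 0 included Selp at 0.67 ± 0.04, Sele at 0.63 ± 0.09, Icam1 at 0.96 ± 0.14 and S1pr1 at 0.75 ± 0.05. The 2 most abundant members, Pecam1 at -0.10 ± 0.04 and Cdh5 at -0.16 ± 0.05, lay below 0. Among 29 lymphotoxin receptor and NF-kB genes, Tnfaip3 at 1.39 ± 0.32 and Ikbkg at 1.13 ± 0.21 rose, and Bcl3 at -1.41 ± 0.25 and the scarce Tnfrsf11a fell. These were 6.9% in each direction, against 4.58% and 3.21% of all genes. The exons of Ikbkg overlap those of G6pdx. The receptor gene Ltbr itself had a log2 fold change of 0.04 ± 0.08.

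Interferon-stimulated genes were the largest group of fallers. Of 106 tested, 65 fell and none rose, with a median log2 fold change of -1.23. Ifit3 read 66841, 61969 and 64451 in HEC normal and 8172, 7880 and 8391 in HEC tumour, a log2 fold change of -2.98 ± 0.06. Its near-identical neighbour Ifit3b fell by 2.83 on the log2 scale, and the reads of the pair may be split. These 65 genes left 530 of the 595 that fell outside the list. Some of those are still known as interferon-responsive and were absent from the list. Trim34a, a tripartite motif gene, read 3747, 3600 and 3808, then 1347, 1444 and 1333, with -1.43 ± 0.06 and adjusted p = 5.4e-111. Gbp10, a guanylate-binding protein gene, fell from 959, 866 and 810 to 90, 56.2 and 94.1, and Ifi206 from 1095, 789 and 877 to 102, 70.1 and 86.3. All 3 kept their groups apart by a wide margin.

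The start of Trim34a is shown because it carries the letters of the interferon-stimulated response element. The window is chr7:104244207-104244486 on the plus strand of GRCm38.p6 in RefSeq, and the capitals mark the element, which lies just after the annotated start.
Trim34a: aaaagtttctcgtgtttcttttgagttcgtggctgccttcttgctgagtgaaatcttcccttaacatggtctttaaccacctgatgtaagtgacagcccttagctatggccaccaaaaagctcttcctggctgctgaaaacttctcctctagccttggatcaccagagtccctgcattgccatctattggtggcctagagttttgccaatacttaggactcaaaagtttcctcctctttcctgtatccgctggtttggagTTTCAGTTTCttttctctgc
The letters GAAANNGAAA, searched on both strands, were found in the windows of 3.81% of the 11157 protein-coding genes tested, 11.5% of the 400 that fell and 3.37% of the 416 that rose. Without the interferon list, 18 of 351 genes that fell held them, or 5.13%.

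Of 34 JAK-STAT and SOCS genes, 4 fell (11.8%, against 3.21% of all genes) and none rose. Some of the 4, such as Stat2, also belong to the interferon list. Stat2 read 14764, 15319 and 15213 in HEC normal and 4426, 2578 and 2886 in HEC tumour, with -2.20 ± 0.17 and adjusted p = 3.1e-36. Stat3, which mainly serves cytokines of the interleukin-6 family, read 5565, 4464 and 5653, then 2213, 2164 and 2219, with -1.25 ± 0.10 and adjusted p = 1.7e-32. Exons of Stat3 overlap Stat5a. The feedback gene Socs2 fell by 1.28 on the log2 scale. These 3 genes were lower in each HEC tumour library than in any HEC normal library. Of 24 MHC class I genes 3 fell (12.5%, against 3.21% of all genes) and 1 rose (4.17%, against 4.58%). Log2 fold changes were below 0 in 22 of the 24, with a median of -0.50. H2-T22 fell by 1.11 and Tap1, the peptide transporter, by 1.10. The classical genes H2-K1 at -0.60 ± 0.19 and H2-D1 at -0.44 ± 0.09 were not called. The rise of H2-Q7 was from 5.07, 5.09 and 9.56 to 47.3, 36.5 and 22.1.

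Of 43 interleukin and receptor genes 5 fell (11.6%, against 3.21% of all genes) and 2 rose (4.65%, against 4.58%). Of 18 checkpoint and costimulatory ligand genes 3 fell (16.7%) and 1 rose (5.56%), and Il33 and Il15 are counted in both lists. Of 25 TNF ligand and receptor genes 4 rose and 2 fell, among the latter Tnfsf10, which the checkpoint list also holds. Il33, an alarmin stored in endothelial nuclei, read 640, 668 and 538 in HEC normal and 72.7, 35.5 and 42.1 in HEC tumour, a log2 fold change of -3.62 ± 0.48 with adjusted p = 6.7e-13. Il34, a ligand of the macrophage receptor CSF1R, read 226, 128 and 189, then 27.7, 12.8 and 22.1, with -3.13 ± 0.35 and adjusted p = 1.1e-17. Il15, a survival factor for natural killer and memory T cells, read 562, 725 and 670, then 194, 151 and 298, with -1.61 ± 0.27 and adjusted p = 1.8e-08. All were lower in each HEC tumour library. Tnfsf10, which encodes the death ligand TRAIL, fell by 1.90 on the log2 scale from about 100 normalised counts. Among 23 chemokine genes 3 fell and none rose, each with a HEC normal mean of at most 302 normalised counts, and the median of the list was 0.29. Ccl3 read 441, 401 and 65, then 70.4, 111 and 74.2, so its groups overlapped. Cd274, the checkpoint ligand PD-L1, had a log2 fold change of -0.98 ± 0.11, just under the limit.

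The strongest fallers also included genes of varied function. Fbxo32, the ubiquitin ligase atrogin-1, read 1880, 1593 and 1764 in HEC normal and 301, 293 and 382 in HEC tumour, with -2.42 ± 0.14 and adjusted p = 9.3e-65. Mxi1, an antagonist of MYC, read 7246, 6156 and 6128, then 1926, 1861 and 1752, with -1.82 ± 0.09 and adjusted p = 9.4e-85. Ccng2, a cyclin of non-dividing cells, read 8446, 6776 and 7225, then 2664, 2432 and 2845, with -1.50 ± 0.10 and adjusted p = 7.1e-50. Their groups were well apart. Bmf, a death-promoting BCL2 family gene, fell by 2.08 on the log2 scale, from 467, 420 and 578 to 139, 121 and 87.4. Ndrg1, a gene induced by low oxygen and by differentiation, read 41786, 37101 and 35271, then 14506, 13837 and 14147, with -1.43 ± 0.08 and adjusted p = 8.3e-76. It was the only called entry of 37 in the glycolysis and hypoxia list, in which 1 symbol stood for 2 genes. Xdh, the xanthine dehydrogenase of purine breakdown, read 18551, 17856 and 17333, then 8282, 7956 and 8523, with -1.12 ± 0.06 and adjusted p = 4.4e-66. Chac1, which degrades glutathione, and Pck2, the mitochondrial carboxykinase, fell by 1.15 and 1.19 within an integrated stress response list of 32, in which 1 other gene rose.

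Axl, a receptor kinase that recognises dying cells through GAS6, read 5244, 5666 and 5244 in HEC normal and 1289, 1315 and 1319 in HEC tumour, with -2.04 ± 0.10 and adjusted p = 1.1e-92. Ncaph, a condensin subunit, read 8622, 8163 and 8925, then 4077, 4076 and 3958, with -1.09 ± 0.05 and adjusted p = 1.1e-105. It was the only 1 of 46 mitosis genes called, although 39 of them had log2 fold changes below 0, with a median of -0.30. None of 44 DNA replication genes was called, and their median was 0.01. Syne3, which links the nucleus to the cytoskeleton, read 2778, 2837 and 2766, then 927, 900 and 909, with -1.62 ± 0.08 and adjusted p = 1.6e-86. None of these groups overlapped. Mpp2 fell by 1.99, Rtkn2 by 1.76 and Zbtb7b by 1.00 on the log2 scale. Zfp62, a zinc finger gene, fell from 3017, 2510 and 2903 to 293, 620 and 462. Dbp, a clock output gene, fell by 1.63, the only 1 of 18 circadian genes called, whose median was -0.31. Of 32 angiogenic genes, Angptl2 fell by 1.26 and Vegfd by 1.91, and the third call, Vegfc, rested on 8.11 normalised counts in 1 library. Of 21 nitric oxide, endothelin and tone genes 4 fell, with log2 fold changes of -1.54 for Nos2 and -2.54 for Arg2, and the other two were at or under 12.2 in every library.

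The forkhead sequence GTAAACA was found, on either strand, in the windows of 3.17% of the 11157 genes, 6.75% of those that fell, 6.55% of those that fell outside the interferon list and 3.85% of those that rose. The Axl window, chr7:25788704-25788983 on the minus strand of GRCm38.p6 in RefSeq, is shown as an example, with capitals marking the match 229 bases before the start.
Axl: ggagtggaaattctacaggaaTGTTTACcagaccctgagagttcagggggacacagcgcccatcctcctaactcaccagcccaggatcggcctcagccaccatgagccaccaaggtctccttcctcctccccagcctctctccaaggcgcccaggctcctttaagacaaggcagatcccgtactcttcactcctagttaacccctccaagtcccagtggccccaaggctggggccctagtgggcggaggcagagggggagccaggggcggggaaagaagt
The E-box CACGTG was found in 11.2% of all, 6% of those that fell and 10.6% of those that rose, and the AP-1 site TGANTCA in 6.96%, 9% and 10.6%. Outside the interferon list, 6.84% of those that fell held the E-box and 6.84% the AP-1 site. The CRE site TGACGTCA was in 3.33%, 1.75% and 2.64%, CCAAT in 43%, 43.5% and 43.8%, and TATAAA in 9.48%, 13.3% and 13.5%. These letters were chosen with the gene lists known, and binding was not measured.

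**Figure D3:**
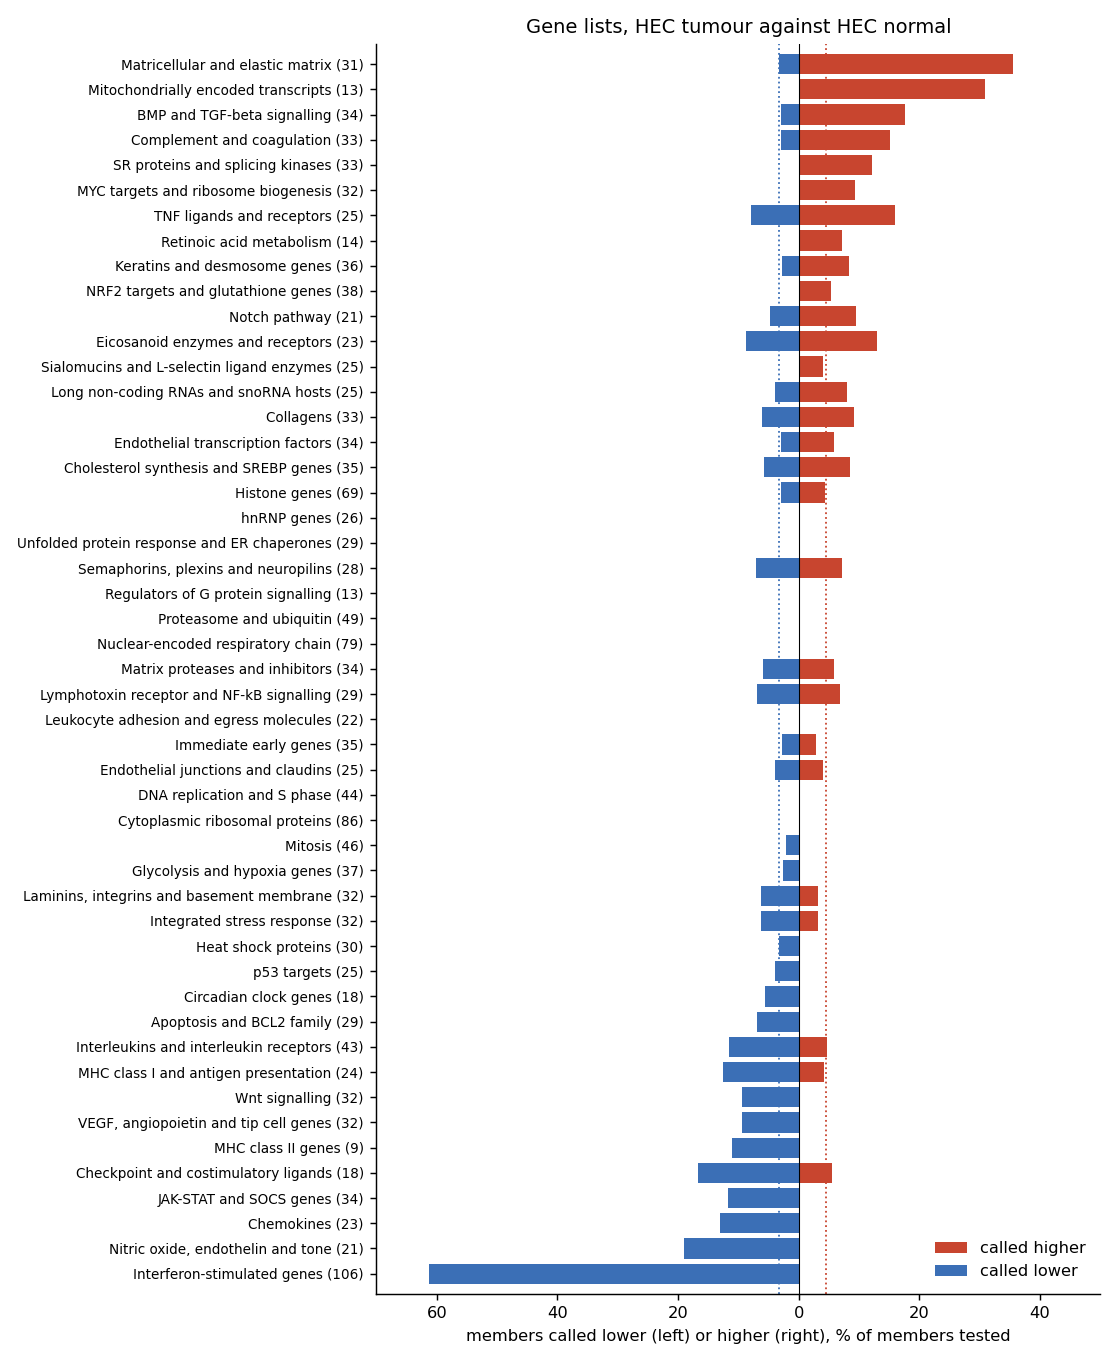
Percentage of tested members of each of the 49 gene lists called higher (right, red) or lower (left, blue), with the number tested in brackets and dotted lines at the 4.58% and 3.21% of all genes tested. Interferon-stimulated genes stand out on the left, and matricellular genes on the right.

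Several list calls rested on traces of RNA. The 3 Wnt genes called lower, Tcf7, Lef1 and Dkk3, each had values in 1 HEC normal library only, at 16.3, 11.2 and 12.2 normalised counts, and H2-DMb2 of the MHC class II list had 11.5 in 1 library. In all, 39 called genes had a value above 0 in a single HEC library. Of the TNF ligand and receptor genes, none of the 12 with a mean of at least 100 normalised counts rose. Klf15, Pkp1 and Sema3d likewise rose from at most 4.06 normalised counts. No member was called among 29 unfolded protein response, 49 proteasome and 13 Rgs genes. The highest members of the first 2 of these lists, Hsp90b1 at -0.17 ± 0.12 and Psmd2 at -0.41 ± 0.05, were both within 2-fold.

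BECs, the blood vessel endothelial cells, came from the fat pad of mice without tumour and from within the tumour itself. Their contrast therefore also changes the host tissue, whereas HECs came from lymph nodes in both groups. An interaction term, with the same limits on adjusted p and fold, was called in 4309 genes, or 23.3% of those tested. Of the 848 genes that rose in HECs, 443 had a significantly larger log2 fold change there, and of the 595 that fell, 277 had a lower one. Since these genes were picked for a change in HECs, which is one side of the interaction, the counts are not independent of that choice. In BECs, 169 of the 848 rose and 184 fell, and 102 of the 595 rose and 200 fell. The shares of all genes tested that were called in BECs are not given here. Whether these counts are more or fewer than for other genes therefore cannot be read from them.

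Several leading risers went the other way in BECs. Their BEC log2 fold changes were -3.21 for Fbln2, -2.98 for Rflnb, -2.54 for Id3, -2.45 for Ccn2, -2.01 for Adam12 and -1.26 for Cyp26b1, and all were called lower there. In Fbln2 the BEC means were 61693 and 6646 normalised counts, both above the HEC tumour mean of 1046. Srsf6, at -0.60 ± 0.05, was lower within 2-fold. Among fallers, Xdh at 1.82 ± 0.06 and Ndrg1 at 1.25 ± 0.08 rose in BECs, while Axl at -2.44 ± 0.10 and Col8a1 at -2.19 ± 0.11 fell in both cell types. The interaction was 0.40 ± 0.14 for Axl and -0.49 ± 0.17 for Col8a1, both under 2-fold. Krt80 rose in both, by 4.52 in BECs, and its interaction was -3.10.

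**Figure D4:**
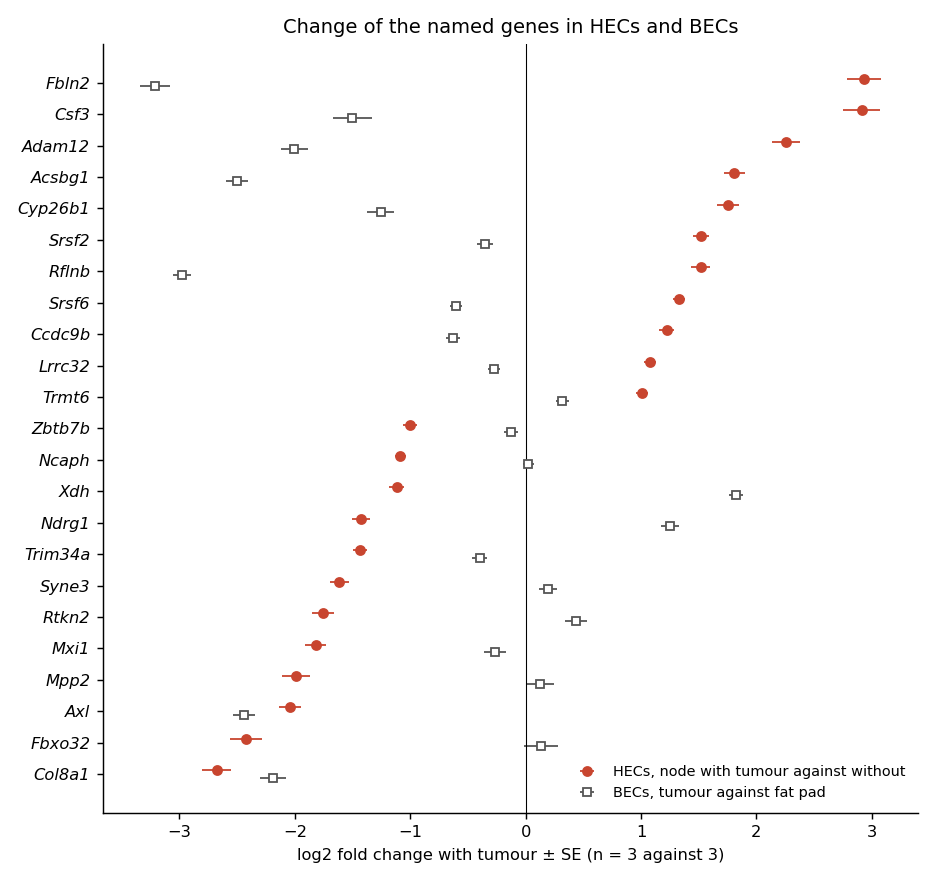
Log2 fold change with tumour ± SE (3 libraries against 3) in HECs (red circles) and BECs (open squares) for 23 named genes among those with the largest Wald statistics. Of the 11 genes shown that rose in HECs, Trmt6 alone had a BEC value above 0.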

How the data were processed

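RNA was sequenced from HECs and BECs. Reads were aligned by the authors to GRCm38 with STAR, and featureCounts gave the fragments of each gene. The endothelial table they deposited was treated as estimated counts: its low values are spaced by about 3.735, so 1 unit is not 1 fragment. In steps, HEC depth was 15.1 to 19.1 M per library. The deposited EO771 counts gave only the tumour cell gene list. DESeq2 1.42.0 in R 4.3.3 was fitted across the 12 endothelial libraries with 1 term, the group, on genes with a mean of at least 10 (a gene just inside had a mean of 10 and HEC values of 0 to 8, and one just outside a mean of 9.92 and HEC values of 0 to 20), with Wald tests, two-sided, and p-values adjusted by Benjamini-Hochberg. For 65 genes, among them mt-Atp6, no p was given because of an outlying library. An exact permutation test of 3 against 3 cannot go below 0.1. A value of 3 served as the floor, and errors cover replicate and counting variation only. On data simulated for the HEC comparison with 18511 genes, 46 of 50 genes raised 4-fold and 43 of 50 raised 2.5-fold were called. Of 18311 unchanged genes, 26 were called. The simulated counts lacked the spacing of the real table, and no single library was made to stand apart. False calls that come from either are therefore not covered. The changed genes were drawn from those with a HEC normal mean of at least 50, whereas the genes that rose had a median of 34.5. For scarcer genes the simulation therefore gives no figure. The named genes were the 12 higher and 12 lower with the largest Wald statistics, the 5 higher and 5 lower with the largest folds among those of at least 500 normalised counts in the higher group, all outside the interferon list, without predicted names and with groups that did not overlap, then up to 4 called members of each list (3 of the interferon list, or the 2 most abundant where none was called) and 6 chosen genes, namely Glycam1, Fut7, Chst4, Alox12, Cyp26b1 and Krt80. Genes named beyond these, such as Id1 and Cd274, are list members whose values had been seen. The members and the gene lists were chosen with earlier results of these data known. Of 55401 genes, 260 had no match in the GENCODE annotation of GRCm38. Promoter windows matched 106 of the 158 named genes. Exons of 521 called genes overlap another gene. TMM scaling, edgeR 4.0.16, other filters, division by the step, a replicate block and leaving out libraries were tried. Some genes that met the rule are not reported here.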

Additional observations from a re-analysis of the deposited data

Results flagged for a closer look

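Of the 36 genes with the largest changes or chosen by name, 29 changed differently with tumour in HECs and BECs by the interaction test. In 10 of them the called changes went in opposite directions. Most of the 36 were picked for a large change in HECs, which itself enters the interaction, so these counts are not independent of that choice. Over all genes tested, 23.3% were called by interaction. Given as the change in HECs less that in BECs on the log2 scale, the differences were, for the 28 reported here, 6.15 for Fbln2, 4.80 for Cmklr1, 4.49 for Rflnb, 4.42 for Csf3, 4.31 for Acsbg1, 4.26 for Adam12, 4.08 for B3gnt2, 3.29 for Col20a1 and 3.01 for Cyp26b1. They were 2.72 for Alox12, 1.93 for Srsf6, 1.87 for Srsf2, 1.85 for Ccdc9b and 1.36 for Lrrc32. Differences below 0 were -4.60 for Zfp62, -3.57 for Gbp10, -3.10 for Krt80, -2.94 for Xdh, -2.67 for Ndrg1, -2.56 for Fbxo32, -2.20 for Rtkn2, -2.12 for Mpp2, -1.97 for Il33, -1.81 for Syne3, -1.55 for Mxi1, -1.40 for Ifi206, -1.11 for Ncaph and -1.04 for Trim34a. BECs were taken from fat pad and primary tumour and HECs from nodes, and the effects of tissue and of cell type cannot be told apart.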

How the results depend on the processing

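The counts of genes called higher, lower and by interaction stayed within 1.5 times of 848, 595 and 4309 under TMM scaling, other filters on low values, edgeR, division by the step and leaving out any HEC library. The HEC libraries alone gave 1036 higher and 539 lower, and no interaction can be fitted to them. edgeR gave 618, 529 and 3956, and it shared 616 of the genes called higher and 503 of those called lower. Leaving out 1 HEC library gave 704 to 846 genes called higher, 551 to 633 lower and 4186 to 4279 by interaction. With equal replicate numbers as a replicate block, the counts were 812, 567 and 4224. Whether equal numbers mark the same mice is not stated. Same-numbered HEC libraries correlated at -0.0068 to 0.0345, too low to treat them as paired, and pairs of HEC and BEC libraries were not checked. A test against a log2 fold change of 1 left 64, 105 and 1776. The adjusted p alone gave 3128, 3426 and 8643. Counting genes of at least 100 normalised counts in 1 group, an alternative added after seeing the data, left 436 higher and 394 lower. Of 540 values for the 36 most changed genes under these alternatives, 524 kept their direction and side of the threshold, 14 lost the call, 2 gained it and none reversed. Over all 158 named genes, 44 lost the call under at least 1 alternative, that stricter test aside. Without HEC normal replicate 2, Tcf7 and Lef1, and without replicate 1, Dkk3 and Vegfc, had no HEC values left. Depth limits scarce genes most.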

Other observations

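Txnip, a thioredoxin inhibitor that responds to glucose, was outside the rule for named genes and was picked after its values were seen. It read 17478, 15611 and 10903 normalised counts in HEC normal and 4229, 4397 and 4575 in HEC tumour, a log2 fold change of -1.74 ± 0.16 with DESeq2 adjusted p = 7.2e-25. Its groups did not overlap. The circadian gene Per1 read 9078, 8792 and 9299, then 5504, 5302 and 5154, at -0.77 ± 0.08, short of 2-fold.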
